A study of Rattus norvegicus with 7 samples.

Results

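The genes described here encode receptors for neurotransmitters and voltage-gated or related ion channels, measured in rat alveolar type 2 cells, the epithelial cells that make surfactant. Members were chosen by symbol. They were all genes whose symbol began with Gria, Grin, Grik, Grm and a digit, Gabr, Htr, Drd, Chrn, Chrm, Kcn, Cacn, or Scn and a digit. This gave 241 probe sets for 154 genes, of the 4736 genes measured, and each gene was represented by its probe set with the highest mean over the 7 arrays. The cells came from male Sprague Dawley rats on a Lieber-DeCarli liquid diet for 6 weeks. In 3 rats ethanol supplied 36% of calories, and 4 control rats received an isocaloric diet without ethanol. Cells were isolated by immuno-absorption, a step that depletes or captures cells with antibodies, and the animals' ages are not given in the sources used here. Each rat gave 1 array, so p-values measure the spread between animals. In the array numbering all 4 controls precede all 3 ethanol arrays, so the diet and any effect of that order cannot be told apart. The numbering skips from 4 to 6, and the ethanol replicates are numbered 2 to 4. An ethanol replicate 1 is thus not among the samples, and the sources used here give no reason. In such isolates fewer cells of a type and less RNA per cell cannot be told apart either.

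Glutamate acts on ionotropic receptors of the AMPA, NMDA and kainate classes, which are cation channels, and on metabotropic receptors, which couple to G proteins. GABA-A receptors are chloride channels, nicotinic receptors are cation channels gated by acetylcholine, and muscarinic and dopamine receptors and nearly all serotonin receptors couple to G proteins. Voltage-gated sodium, calcium and potassium channels carry the action potential of nerve and muscle, whereas potassium channels of several classes also set the resting potential that drives ion and fluid transport across epithelia such as the alveolar lining. Most members are therefore known from brain, heart or skeletal muscle.

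The labelled cell type was read first. Of the 10 measured type 2 cell markers, 9 stood above the dim ceiling defined below, with the surfactant protein gene Sftpc at a mean of 12.71 on the log2 signal scale. Of 10 measured neuroendocrine or neuronal markers 0 stood above it, and their highest mean was 5.68; 5 of these 10 also served in the dim reference. Of 10 cardiac and striated muscle markers 1 did, Nppa at 6.31, and of 10 smooth muscle and fibroblast markers 2 did, Acta2 at 6.45 and Vim at 6.38. Macrophage markers were present above it in 2 of 6 cases and club cell markers in 3 of 3. The macrophage marker means ran from 2.61 to 11.70 and the club cell marker means from 6.61 to 9.26, so the highest stood far above the ceiling. T and natural killer cell (7 measured), mast cell (5) and endothelial markers (4) were all below it. The part of other cells in the members' signal was not tested.

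Most neurotransmitter receptor and channel genes read no higher than genes of unrelated tissues. To set that range, 69 measured genes of retina, pituitary, pancreas, liver, muscle, testis, brain and other organs served as a reference for dim signal. Their means ran from 2.53 to 6.81 with a median of 4.73, and their 95th percentile, 6.06, was taken as the dim ceiling. Of the 154 members, 15 had a mean above the ceiling (9.74%), against 837 of the 4736 genes on the array (17.7%), and by its construction 4 of the 69 reference genes also lay above it. The members' median was 4.58, and 137 members stayed below the ceiling on every array. Only 6 of the 15 were above it on all 7 arrays, namely Drd3, Kcnh3, Kcnj15, Chrm1, Cacna1a and Scn4a. A ceiling at the highest reference gene left 4 members, Drd3, Grina, Kcnh3 and Kcnj15. Probe sets differ in how strongly they bind their target, so a signal above the ceiling is a reading of that probe set, and the order of members by signal is not an order of transcript abundance.

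**Figure D1:**
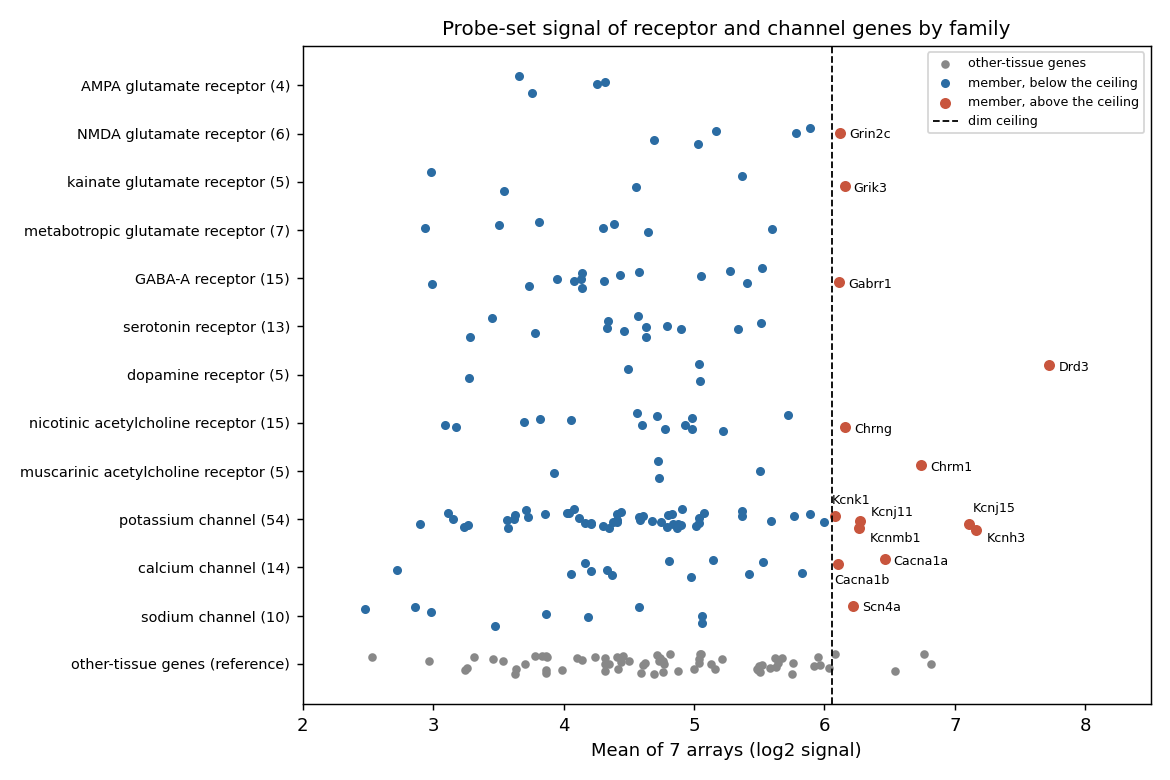
Mean log2 signal over the 7 arrays (x axis) of each member by family (rows, with the number of members), with the other-tissue reference genes in grey in the lowest row and the dim ceiling of 6.06 as a dashed line; vertical scatter within a row carries no meaning. Grina, at 6.83, is not drawn because it shares only the symbol prefix. In every family the majority of points lie left of the line.

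By family, the members above the ceiling were spread thinly. Potassium channels had 5 of 54 above it, calcium channels 2 of 14, and sodium channels 1 of 10. NMDA receptors had 1 of 6, kainate receptors 1 of 5, GABA-A receptors 1 of 15, dopamine receptors 1 of 5, nicotinic receptors 1 of 15 and muscarinic receptors 1 of 5. None of the 4 AMPA, 7 metabotropic glutamate or 13 serotonin receptor genes reached it. The highest mean was 4.32 for the AMPA receptor subunit gene Gria1, 5.60 for the metabotropic glutamate receptor gene Grm4 and 5.51 for the serotonin receptor gene Htr6. The last of the 15, Grina, matches the symbol rule but encodes a membrane protein of intracellular compartments, not a glutamate-gated subunit.

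Among ion channels, the inward rectifier potassium channel gene Kcnj15 stood above the ceiling on every array. Its probe set rc_AA893192_at lay at 7.04, 6.78, 6.61 and 6.70 in controls 1 to 4 and at 6.79, 7.85 and 8.01 in ethanol 2, 3 and 4. Ethanol 3 and 4 were above all controls, and ethanol 2 was within the control range. Kcnk1, which encodes a tandem-pore potassium leak channel, lay at 6.04, 5.45, 6.21 and 6.32 in the controls and at 5.77, 6.44 and 6.35 with ethanol. It was above the ceiling on 4 of 7 arrays, and the arrays numbered 2 in each group were its lowest. Kcnj11, the pore subunit of the ATP-sensitive potassium channel, lay between 5.91 and 6.45 on all arrays. Kcnmb1, the accessory subunit of the large-conductance calcium-activated potassium channel of smooth muscle, lay between 5.96 and 6.56. Its other probe set was also above the ceiling, at a mean of 6.13. Among the markers of smooth muscle, Acta2 was above the ceiling at 6.45, whereas the smooth muscle myosin gene Myh11 was below it, at 4.52; their part in the Kcnmb1 signal was not tested.

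Grina lay at 6.52, 5.98, 6.41 and 7.15 in the controls and at 7.14, 7.17 and 7.42 with ethanol, and both of its probe sets were above the ceiling. Control 4 was narrowly above ethanol 2, at 7.150 against 7.144, and below ethanol 3 and 4, so the groups overlapped. After quantile normalization they did not overlap.

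The remaining genes above the ceiling are best known from nerve, skeletal muscle or retina. The dopamine receptor gene Drd3 ranged from 7.60 to 8.26 in the controls and from 7.31 to 7.81 with ethanol, with control 2 the highest. Kcnh3, an ether-a-go-go type potassium channel gene of forebrain, ranged from 6.98 to 7.39 on all arrays. The muscarinic receptor gene Chrm1 ranged from 6.65 to 6.84, with the groups intermixed. Cacna1a and Cacna1b, which encode the pore subunits of the P/Q-type and N-type presynaptic calcium channels, had means of 6.46 and 6.10. The skeletal muscle sodium channel gene Scn4a, at 6.22, and the fetal muscle nicotinic receptor subunit gene Chrng, at 6.16, stood close to the ceiling. So did the kainate receptor gene Grik3 (6.15), the NMDA receptor subunit gene Grin2c (6.12) and Gabrr1, a GABA receptor subunit of the retina (6.11). Just below the ceiling lay Kcnh2, the cardiac repolarising potassium channel gene (6.00), the obligatory NMDA subunit gene Grin1 (5.89) and Kcna5, a delayed rectifier potassium channel gene (5.89).

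**Figure D2:**
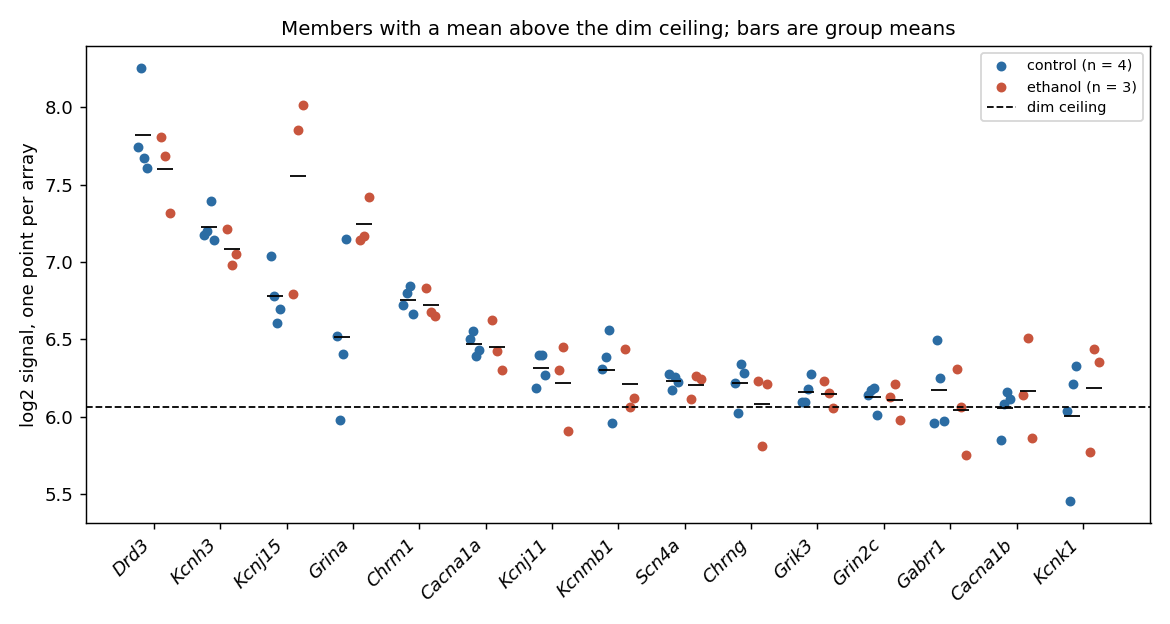
Log2 signal (y axis) of the 15 members with a mean above the dim ceiling (dashed line, 6.06), 1 point per array, controls in blue (n = 4) and ethanol in red (n = 3), with horizontal bars at the group means. Kcnj15, Grina and Kcnk1 spread widely between animals, whereas the points of Chrm1, Scn4a, Grik3 and Grin2c lie close together.

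The members above the ceiling varied between animals to different degrees. The SD within groups was set against that of all probe sets whose mean lay within 0.25 of the member's own. Kcnk1 (SD 0.378), Kcnj15 (0.444) and Grina (0.386) varied more than 86.1%, 78.8% and 75.4% of such probe sets. At the other end, Scn4a (0.060) varied more than 0.963% of them, Grik3 (0.087) more than 4.75%, Chrm1 (0.087) more than 6.12%, Kcnh3 (0.115) more than 7.22% and Grin2c (0.098) more than 8.61%. The rest filled the range between, from Cacna1a at 15.0% to Gabrr1 at 67.6%. These are descriptions, and no test was made of them.

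Where a gene had several probe sets, they often disagreed about whether it was above the dim range. Of the 15 members above the ceiling, 5 had a single probe set (Kcnj15, Chrng, Grik3, Gabrr1 and Kcnk1) and 10 had several. In 2 of these 10, Grina and Kcnmb1, every probe set was above the ceiling, and in the other 8 at least 1 was below it. The widest gap was that of Drd3, at 7.72 on X53944_at and 4.67 on A17753cds_s_at. Chrm1 read 6.74 and 5.05, Cacna1b 6.10 and 4.25, and Grin2c 6.12 and 4.81. Scn4a read 6.22, 5.28 and 3.24, and the 4 Cacna1a probe sets ran from 6.46 down to 4.10. For Kcnh3 (7.16 and 6.02) and Kcnj11 (6.27 and 5.52) the lower probe set was nearer to the ceiling. Over all 63 members with several probe sets, the median gap between the highest and the lowest was 0.93. When each gene's probe sets were averaged, the ceiling set the same way was lower, at 5.74. Above that lower ceiling were 14 members, 11 of them among the 15.

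**Figure D3:**
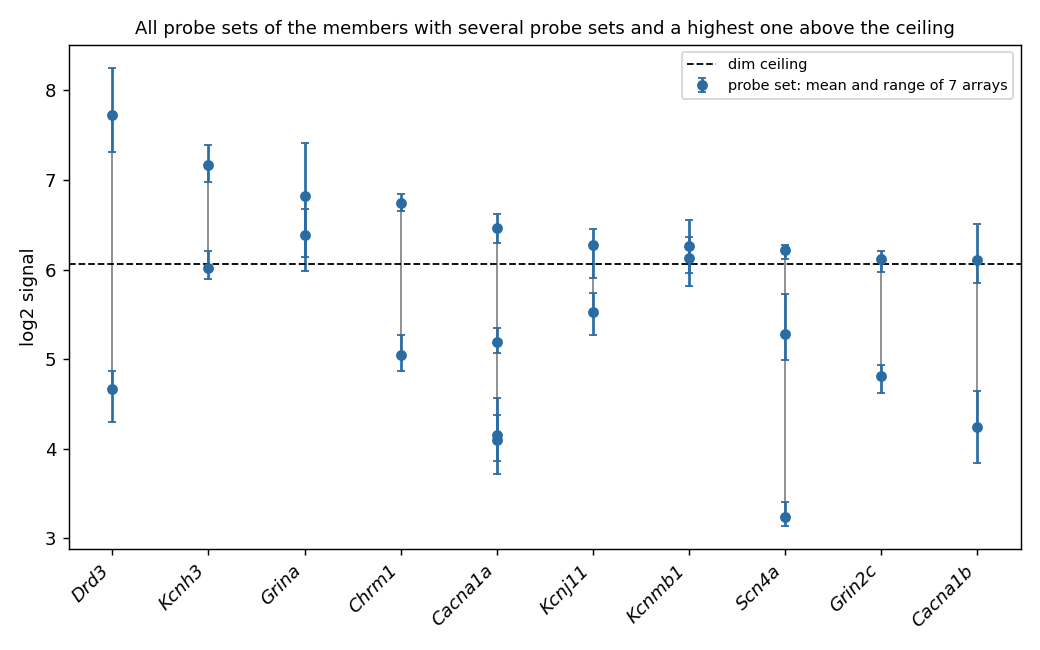
Log2 signal (y axis) of every probe set of the 10 members above the ceiling that have several; each point is the mean over 7 arrays, bars span the lowest to the highest array, and grey lines join probe sets of a gene. Only Grina and Kcnmb1 have all points above the dashed ceiling of 6.06.

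A receptor gene known from lung epithelium was read as dim. Gabrp encodes the pi subunit of the GABA-A receptor, which is known from lung and other epithelia, and was picked for this after its values were seen. Its probe set U95368_at lay at 4.17, 3.59, 4.21 and 3.53 in the controls and at 3.46, 3.50 and 3.69 with ethanol. All 7 values are below the ceiling, and the groups overlapped. A single probe set that binds poorly would read the same, so these values do not show that the transcript was absent.

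The start regions of the members were compared through the RefSeq promoter table of the GRCr8 assembly, which held 115 of the 154 members and 3871 of the array's genes. It did not list Grina, Kcnk1, Kcnh3 or Kcnj11. The windows run from 250 bases before to 50 bases after the start. The median GC content was 60.0% in members and 60.0% in all genes. The ratio of CG pairs found to those expected from the base composition had a median of 0.54 in members and 0.69 in all genes. It was above 0.6 in 48 of the 115 members (41.7%) and in 59.2% of all genes. In the 11 listed members above the dim ceiling the median was 0.32, against 0.55 in the 104 below it. These shares are descriptions of the windows and say nothing of what binds there. The 250 bases before the start are shown for Kcnj15 and Htr1d, the members with the greatest difference and the lowest p in the diet comparison, and for Grik3 as a CG-dense example above the ceiling. They lie at chr11:48070700-48070949, chr5:153939485-153939734 and chr5:143052192-143052441, each on the plus strand, and capitals mark every CG pair.
Kcnj15: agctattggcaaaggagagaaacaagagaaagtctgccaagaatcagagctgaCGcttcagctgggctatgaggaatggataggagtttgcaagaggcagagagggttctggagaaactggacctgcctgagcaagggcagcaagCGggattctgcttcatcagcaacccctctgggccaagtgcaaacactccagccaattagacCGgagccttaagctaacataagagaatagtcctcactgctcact
Htr1d: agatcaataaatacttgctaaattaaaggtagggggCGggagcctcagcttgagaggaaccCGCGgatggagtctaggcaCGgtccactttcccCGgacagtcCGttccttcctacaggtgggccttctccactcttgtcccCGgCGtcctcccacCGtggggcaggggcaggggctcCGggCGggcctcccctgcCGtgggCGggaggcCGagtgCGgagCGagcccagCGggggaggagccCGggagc
Grik3: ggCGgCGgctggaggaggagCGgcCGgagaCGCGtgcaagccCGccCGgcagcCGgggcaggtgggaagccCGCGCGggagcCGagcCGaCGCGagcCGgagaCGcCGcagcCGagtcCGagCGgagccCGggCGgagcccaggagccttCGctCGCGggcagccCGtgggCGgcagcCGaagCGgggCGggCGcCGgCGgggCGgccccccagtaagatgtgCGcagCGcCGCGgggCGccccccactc
The stretch before Kcnj15 holds 3 CG pairs, that before Htr1d 18 and that before Grik3 41.

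Ethanol feeding was then compared with the control diet, to ask whether receptor or channel transcripts differed after 6 weeks. None of the 154 members passed. In limma with Benjamini-Hochberg adjustment over all 8740 probe sets, 0 members had an adjusted p under 0.05, where 0.149% of all probe sets did. At unadjusted p under 0.05 there were 7 members (4.55%), 4 higher and 3 lower, against 4.58% of all probe sets. The groups did not overlap in 7 members (4.55%), 3 higher and 4 lower with ethanol, against 5.24% of all probe sets. Both shares are thus near the background. The median log2 difference, ethanol minus control, was -0.020 over the members and -0.005 over all probe sets, and 67 members were higher and 87 lower. In 139 members (90.3%) the difference was within 0.25 of 0 on the log2 scale, as it was in 83.8% of all probe sets. The median SE of a member's difference was 0.137. Counting all 241 member probe sets, 0 passed and 11 were at unadjusted p under 0.05.

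**Figure D4:**
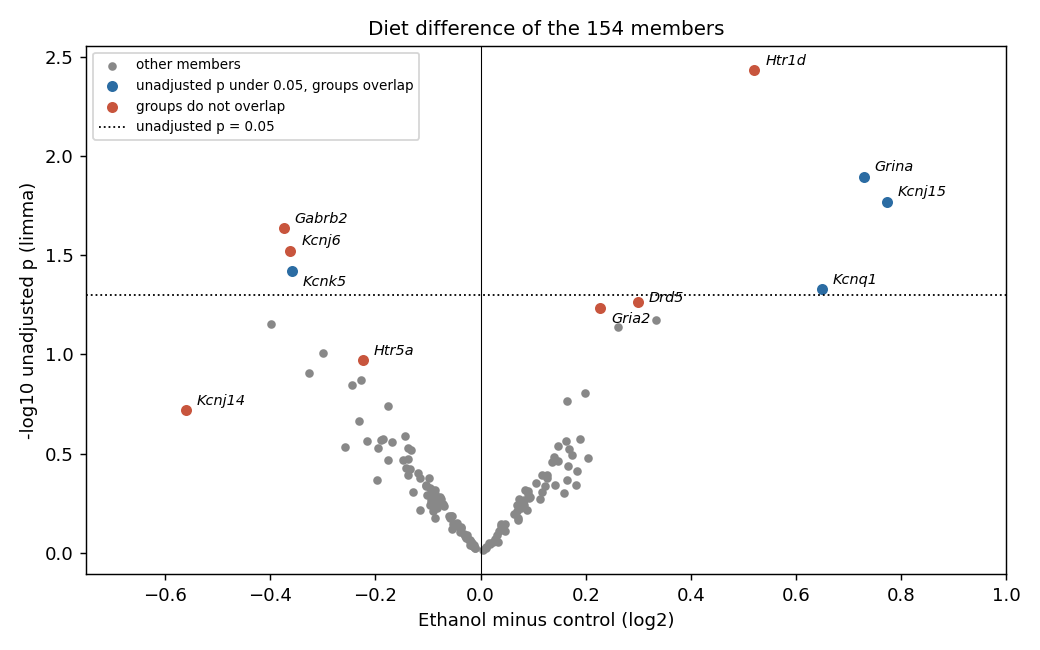
Log2 difference between the ethanol and control means (x axis) against the -log10 of limma's unadjusted p (y axis) for the 154 members, with red points for the 7 whose groups do not overlap, blue points for the others at an unadjusted p under 0.05, grey for the rest, and a dotted line at an unadjusted p of 0.05. Htr1d is highest on the plot, Kcnj15 and Grina lie farthest right, and 0 members pass after adjustment.

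Among receptors, the serotonin receptor gene Htr1d, whose product inhibits adenylate cyclase through G proteins, had the lowest p. It lay at 4.39, 4.49, 4.75 and 4.66 in the controls and at 5.26, 4.96 and 5.06 with ethanol. All ethanol arrays were above all controls, and all 7 values were below the dim ceiling. The group means were 4.57 ± 0.165 (SD, n = 4) and 5.09 ± 0.157 (SD, n = 3), a log2 difference of 0.52 with a 95% confidence interval of 0.22 to 0.83 (limma adjusted p = 0.766).

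The dopamine receptor gene Drd5, whose product stimulates adenylate cyclase, lay at 4.77, 4.99, 4.82 and 5.10 in the controls and at 5.43, 5.11 and 5.12 with ethanol, a difference of 0.30 that was 0.20 without ethanol 2. Gria2, the AMPA subunit that limits calcium entry, lay at 4.08 to 4.22 and at 4.34 to 4.43, a difference of 0.23. In both genes the groups did not overlap, although control 4 and ethanol 3 nearly met in Drd5, at 5.10 and 5.11. The other Gria2 probe set, M38061_at, stood at -0.26, so the gene's probe sets disagreed in sign. Gabrb2, a beta subunit of the GABA-A receptor, lay at 4.34 to 4.85 in the controls and at 4.19 to 4.23 with ethanol, a difference of -0.37, with its other probe set at -0.19. The serotonin receptor gene Htr5a lay at 4.44 to 4.74 and at 4.20 to 4.43, a difference of -0.22. The limma adjusted p was 0.967 for each of Drd5, Gria2, Gabrb2 and Htr5a, and all their values were below the ceiling.

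The greatest difference of any member was that of the inward rectifier gene Kcnj15, whose values are given above. The means were 6.78 ± 0.186 (SD, n = 4) and 7.55 ± 0.665 (SD, n = 3), a log2 difference of 0.77 or 1.71-fold, with a 95% confidence interval of 0.17 to 1.37 (limma adjusted p = 0.967). Without ethanol 2 the difference was 1.15 with a limma adjusted p of 0.0358, the only fit of those run in which a member passed. Without ethanol 4 it was 0.54, and without ethanol 3 it was 0.62. The value therefore depended on which ethanol animals entered. Grina had a difference of 0.73 (95% confidence interval 0.20 to 1.26, limma adjusted p = 0.967), and its other probe set, S61973_g_at, 0.22.

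Other potassium channel genes differed by less or rested on single arrays. Kcnq1 encodes a voltage-gated channel of heart and transporting epithelia. It lay at 3.83, 3.76, 4.16 and 4.34 in the controls and at 5.42, 4.50 and 4.10 with ethanol. Ethanol 2 was the highest and ethanol 4 was within the control range. The difference was 0.65, and it was 0.28 without ethanol 2. Kcnj14, another inward rectifier gene, read 5.20 in control 1, whereas controls 2, 3 and 4 read 3.38 to 3.48 and the ethanol arrays 3.22 to 3.37. Its difference of -0.56 became -0.12 without control 1. By range within a group, Kcnj14, Grina and the kainate receptor gene Grik2 varied most in the controls, and Kcnq1, Kcnj15 and the muscarinic receptor gene Chrm3 with ethanol. Grik2 lay at 3.00 to 4.01 in the controls and at 3.19 to 3.63 with ethanol, and Chrm3 at 4.60 to 4.93 and at 4.24 to 4.98.

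Kcnj6, a G protein-gated inward rectifier gene, lay at 4.37 to 4.66 in the controls and at 3.90 to 4.32 with ethanol, a difference of -0.36, and its groups did not overlap. Kcnk5, which encodes a pH-sensitive tandem-pore channel, lay at 4.67 to 5.24 and at 4.54 to 4.73, also a difference of -0.36, with overlapping groups. The limma adjusted p of Kcnq1, Kcnj14, Kcnj6 and Kcnk5 was 0.967 each, and all their values were below the ceiling.

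The other 13 members above the ceiling had differences between -0.22 (Drd3) and 0.18 (Kcnk1), and their lowest limma adjusted p was 0.967. The Drd3 difference was -0.071 without control 2 and -0.073 without ethanol 4, and that of Kcnk1 was -0.0031 without control 2. The 95% confidence intervals differed by gene, from -0.27 to 0.22 for Scn4a and -0.27 to 0.24 for Grik3 up to -0.64 to 0.20 for Drd3 and -0.34 to 0.71 for Kcnk1. By family, the median log2 difference lay between -0.088 for kainate receptors and 0.094 for metabotropic glutamate receptors. Of 15 GABA-A receptor genes 4 were higher and 11 lower (median -0.087), of 10 sodium channel genes 7 were higher and 3 lower (median 0.050), and all 5 muscarinic receptor genes were lower, by 0.027 to 0.20. In these 3 families 1 gene, Gabrb2, was at unadjusted p under 0.05. Of 54 potassium channel genes 23 were higher and 31 lower (median -0.018), with 4 at unadjusted p under 0.05, where 4.58% of all probe sets were.

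Many members shared the array on which they were highest or lowest, and these arrays fell in both diets. Their median signal was 4.53, 4.69, 4.59 and 4.55 in controls 1 to 4 and 4.74, 4.56 and 4.45 in ethanol 2, 3 and 4, while the median of all probe sets stayed between 4.56 and 4.62. The dim reference genes also varied between arrays, with array means of 4.65 to 4.90 in the controls and 4.62 to 4.85 with ethanol. Whether they moved with the members array by array was not tested. Ethanol 2 was the highest array for 42 of the 154 members (27.3%, against 17.5% of all probe sets) and control 3 for 28 (18.2%, against 10.6%). Control 2 was the highest for 40, but this share was the same as the background, 25.9% of all probe sets. Ethanol 4 was the lowest for 61 (39.6%, against 18.0%) and control 1 for 36 (23.4%, against 16.1%). No test was made of these shares. The SD of all probe sets on an array was smallest in control 2 (1.29) and ethanol 2 (1.34) and greatest in ethanol 4 (1.46). Its part in the members' shifts was not tested. Group means of the member median were 4.59 ± 0.073 (SD, n = 4) and 4.58 ± 0.145 (SD, n = 3).

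**Figure D5:**
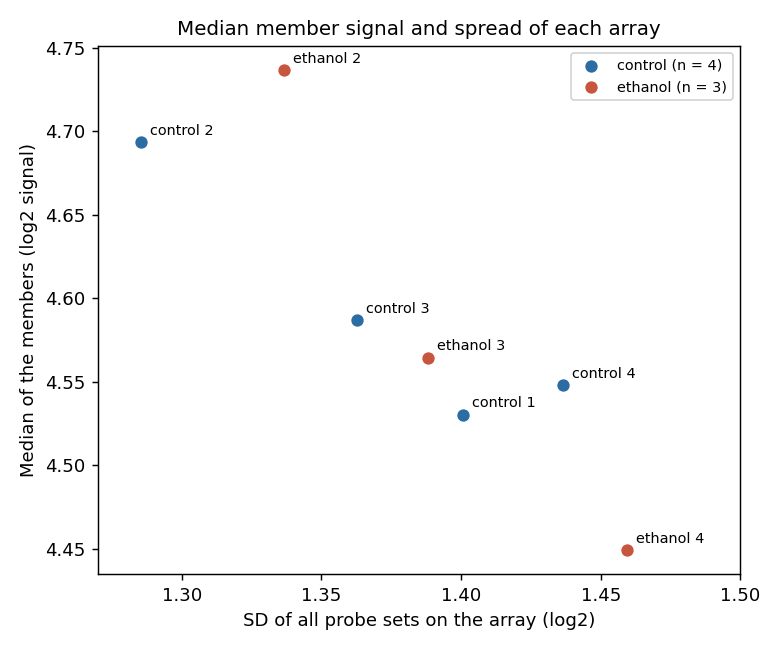
Median log2 signal of the 154 members on each array (y axis) against the SD of all probe sets on that array (x axis), controls in blue and ethanol in red. Control 2 and ethanol 2 combine the highest medians (4.69 and 4.74) with the smallest SDs, and ethanol 4 has the lowest median (4.45) and the greatest SD.

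Genes that make, clear, anchor or accompany these receptors gave a like picture, with 0 past the threshold in limma in every list. Of 27 genes of transmitter synthesis, breakdown and uptake, 2 were above the ceiling, and 18 were higher and 9 lower (median difference 0.023). At unadjusted p under 0.05 there were 2, both higher, where 4.58% of all probe sets were in either direction. The same share is the background for the lists that follow. They were Glul, the glutamine synthetase gene, which lay at a mean of 6.86 in the controls and 7.55 with ethanol (limma adjusted p = 0.808), and Chat, the acetylcholine-synthesising enzyme gene, at 4.51 and 4.82. The GABA-synthesising enzyme genes Gad1 and Gad2 were below the ceiling, at 3.51 and 3.88, as was the GABA-degrading enzyme gene Abat, at 4.46. Of 26 genes for scaffold and partner proteins, 5 were above the ceiling, and 10 were higher and 16 lower (median -0.018). At unadjusted p under 0.05 were the scaffold genes Lin7a (0.33) and Dlg3 (-0.47), and the related Dlg1 and Dlg2 lay at 3.96 and 3.91. Of 41 other ion channel and receptor genes outside the symbol rule, 5 were above the ceiling, and 15 were higher and 26 lower (median -0.079), with 0 at unadjusted p under 0.05. The GABA-B receptor genes Gabbr1 and Gabbr2 lay below it, at 5.13 and 4.83, and the glycine receptor gene Glra1 at 5.25.

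Cell type markers were read on the same contrast. Neuroendocrine and neuronal markers were higher in 3 and lower in 7 of 10 cases, with array means of 4.35 to 4.83 in the controls and 4.33 to 4.59 with ethanol. Cardiac and striated muscle markers were higher in 2 and lower in 8 of 10, with array means of 4.63 to 4.92 and 4.50 to 4.77. Smooth muscle and fibroblast markers were higher in 1 and lower in 9 of 10, with array means of 5.55 to 5.85 and 5.31 to 5.47, which did not overlap, and 5 were lower at unadjusted p under 0.05, a level that 4.58% of all probe sets reached in either direction. The other lists had median log2 differences of -0.106 (type 2 cell), 0.150 (macrophage), -0.094 (T and natural killer cell), 0.001 (mast cell), -0.076 (endothelium) and 0.428 (club cell). None of these marker genes passed in limma. The part of any of them in a member's difference was not tested.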

How the data were processed

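Biotin-labelled RNA from each rat was hybridised to an Affymetrix expression array, per the labels' protocols. The deposited table gave 1 log2 expression value per probe set and array; the unit was read from the range of the values (1.65 to 12.84), and array means lay between 4.758 and 4.760. The authors' summarisation, background correction and normalisation steps were not given in the sources used here, so how far dim differences are compressed is unknown.

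Of 8799 probe sets, 59 array controls were left out and 8740 tested. The platform annotation gave 1 symbol to 7006, and no gene was named from the 308 with several. Of the 7006, 6985 matched the GRCr8 RefSeq table by Entrez identifier, including all 154 members. Differences were tested with limma 3.58.1 in R 4.3.3 (group as the only term, two-sided, Benjamini-Hochberg over all probe sets, threshold 0.05). The fit was also run on simulated data with independent noise per probe set and array. That run does not cover deviations that probe sets share on an array. Errors are SD or SE as written. Figures used matplotlib 3.10.9.

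The members and lists were chosen with earlier results of these data known. Of 80 listed other-tissue genes 69 were measured. By rule the text names members above the ceiling, the 3 nearest below, each family's highest, those with unadjusted p under 0.05 or non-overlapping groups, those with the 3 greatest ranges in either group, and, from the lists, first measured genes and those at unadjusted p under 0.05. Marker genes and those said to be so were picked after their values were seen. Alternatives tried were other ceilings, averaging a gene's probe sets, leaving out each array, leaving out Grina, quantile normalization or median centring, limits on dim probe sets, a trended robust variance prior or no moderation, a replicate block, and array weights.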

Additional observations from a re-analysis of the deposited data

Results flagged for a closer look

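In 32 members named by the rule, the gap of the outermost control to its nearest neighbour was compared with the range of the 4 controls. In 3 the gap exceeded the 95% critical value of Dixon's ratio. Chance exceeds it in about 1 in 20 groups. That rate does not hold for Kcnj14, Grina and Grik2, which were named at least in part for their range in the controls. It need not hold for members named by p or by non-overlapping groups either, since both use the control values. Over all features, 8.44% of the 154 members and 5.19% of the 8740 probe sets exceeded it. In all 3 the outlying array was control 1. Kcnj14 read 5.20 there, and 3.38 to 3.48 in controls 2 to 4. Grin1 lay at 5.25 in control 1 against 5.94 to 6.06. Kcnh2 lay at 5.89 in control 1 against 6.04 to 6.05.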

How the results depend on the processing

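The count of members past the threshold was 0 in every fit except without ethanol 2, where it was 1 (0 to 1 with each array left out). At unadjusted p under 0.05 there were 7 members, 18 with array weights (where 11.8% of all probe sets were), 11 after quantile normalization (5.14%), 4 of the 76 above the overall median (4.99% of probe sets tested) and 2 of the 15 above the ceiling (4.37%) when only such probe sets were tested. With each array left out there were 4 to 11, namely 4 without control 1 (3.38% of all probe sets), control 3 (2.64%) or ethanol 3 (2.99%), and 11 without control 4 (9.03%). The cause was not tested, apart from the smaller numbers tested under the filters. Over all probe sets, 13 passed, 0 without variance moderation (367 at unadjusted p under 0.05), 2 with the filter at the ceiling and 13 to 16 with each array left out. The replicate block gave 23 passing probe sets, of which 0 were members, and 8 members at unadjusted p under 0.05, where 8.12% of all probe sets were. Same-numbered arrays correlated in their deviations from the group means at 0.43, 0.067 and 0.43 for numbers 2, 3 and 4. Control and ethanol arrays of unlike number correlated at -0.53 to 0.35, below both values of 0.43, whereas the 0.067 of number 3 lay within that range. The labels do not name pairs, so the numbers were not taken as pairs, and whether they mark pairs was not tested. Control 1 has no same-numbered ethanol array, so it did not enter the difference in the replicate block. The median member difference ran from -0.061 to 0.041 with each array left out. The members above the ceiling numbered 15, 76 with the ceiling at the median of all probe sets, 28 at their 75th percentile, 4 at the highest reference gene, 6 with every array required, and 13 to 15 with each array left out. Median centring left 4 of the 7 members with groups that did not overlap, namely Htr1d, Gabrb2, Gria2 and Kcnj6. Quantile normalization gave 7 such members, of which the same 4 were among the first 7. Drd5, Htr5a and Kcnj14 thus overlapped in both settings. Averaging each gene's probe sets gave 7, of which 5 were among the first 7. The shares over all probe sets in these settings are not given here. Of 222 recomputed differences of 14 members, 219 kept their sign and side of the threshold, and Kcnj15 passed it without ethanol 2 (1.15). Gria2 turned to -0.016 with the mean of its probe sets and Kcnk1 to -0.0031 without control 2 (-0.0031 to 0.39 with each array left out). With 3 and 4 arrays a group, and most members in the dim range, small changes could be missed.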
